A study of Homo sapiens with 6 samples.

Results

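The metallothioneins are small, cysteine-rich proteins of the cytosol and nucleus, and their transcripts were followed here in U2OS cells, an established human osteosarcoma line, with and without inhibition of poly(ADP-ribose) glycohydrolase (PARG). The 10 members were taken by symbol, as the rows whose Ensembl identifier maps to MT1A, MT1E, MT1F, MT1G, MT1H, MT1L, MT1M, MT1X, MT2A or MT3, out of 60708 rows in the count tables. They were chosen by family, on the counts of these same 6 libraries and with the PARGi against DMSO differences known, so the differences between groups given for them are a description, with no p-value. Counts were found for 4 of the 10.

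PARG removes poly(ADP-ribose) chains from proteins. The control group (DMSO) was wild-type U2OS cells kept in the solvent for 4 days, and the treated group (PARGi) was wild-type U2OS cells kept in 25 µM PDD00017273, a small-molecule PARG inhibitor, also for 4 days. Each group had 3 total-RNA libraries, which the series describes as biological triplicates. Nothing further in the labels says how the cultures were separated, so the spread reported here is the spread between these libraries. All come from 1 cell line and 1 inhibitor dose.

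Metallothioneins bind zinc and copper, and also cadmium, through clusters of cysteine thiolates. Their genes are classic targets of MTF1, a zinc finger factor that senses free zinc and binds metal response elements in their promoters, and several also respond to glucocorticoids and to oxidants. MT1 and MT2 isoforms are widely made, MT3 is best known from the brain and MT4 from stratified epithelia.

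Library totals ran from 60286931 to 80605145 counts, TMM scaling factors from 0.995 to 1.01, and 29566 to 31636 genes had at least 1 count. Of 20409 genes tested with edgeR, 4951 were called at an adjusted p under 0.05, which is 24.3% of them, with 2700 higher in PARGi (13.2%) and 2251 lower. The summed level of 9 mesenchymal markers, mostly COL1A1, VIM and SPARC, ran from 8587 to 9184 counts-per-million (CPM) in DMSO and from 8763 to 8816 in PARGi, and NT5E stayed at or below 0.0806 CPM. Of the 8 tested, 3 were called higher (CD44 by 0.46 on the log2 scale, THY1 and ENG each by 0.26) and 3 lower (COL1A2 fell by 0.80, RUNX2 by 0.27 and SPARC by 0.083). The 6 epithelial markers summed to 31.6 to 32.9 CPM in DMSO and 22.2 to 25.4 CPM in PARGi, mostly KRT14. Of the 5 tested, KRT14 was called lower, by 0.66 on the log2 scale, CDH1 was called higher, by 0.67, and 3 were not called. The 5 blood markers summed to at most 1.48 CPM, the 4 endothelial markers to at most 4.35 CPM and the 5 neural markers to at most 23.1 CPM. Most of the neural sum was SNAP25, at 15.4 to 16.4 CPM in DMSO and 17.7 to 18.9 CPM in PARGi, called higher by 0.20. SOX10 was at 0 in 5 of 6 libraries. The endothelial marker KDR was called lower, by 0.77, and no other tested blood, endothelial or neural marker was called. The part of these marker shifts in the metallothionein values was not tested. In bulk RNA, more cells carrying a transcript and more transcript per cell cannot be told apart.

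The 4 detected members have similar coding sequences, with 90.86% to 95.16% of bases identical between pairs. That can matter for how reads are assigned among them, so these sequences are shown. Each sequence shown is 186 bases with the stop codon, in 3 coding exons, and holds 20 cysteine codons among 61. For members other than MT2A, a coding transcript of the same length as that of MT2A was taken where annotated. The shared length was thus favoured by the choice of transcript and is not a result. In GENCODE 29 on GRCh38, the coding part of MT2A spans chr16:56608656-56609354 on the plus strand, that of MT1E chr16:56625852-56626971 (plus), that of MT1G chr16:56666879-56667993 (minus) and that of MT1X chr16:56682541-56684049 (plus). Capitals mark the cysteine codons in MT2A and, in the other members, every base that differs from MT2A.
MT2A: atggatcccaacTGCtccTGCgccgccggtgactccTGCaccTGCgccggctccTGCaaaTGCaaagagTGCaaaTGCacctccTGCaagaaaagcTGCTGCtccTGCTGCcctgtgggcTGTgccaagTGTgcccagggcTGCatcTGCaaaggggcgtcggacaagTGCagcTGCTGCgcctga
MT1E: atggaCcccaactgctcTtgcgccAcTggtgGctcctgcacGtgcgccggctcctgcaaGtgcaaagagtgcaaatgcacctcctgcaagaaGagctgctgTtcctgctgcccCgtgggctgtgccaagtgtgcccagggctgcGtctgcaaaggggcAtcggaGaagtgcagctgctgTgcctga
MT1G: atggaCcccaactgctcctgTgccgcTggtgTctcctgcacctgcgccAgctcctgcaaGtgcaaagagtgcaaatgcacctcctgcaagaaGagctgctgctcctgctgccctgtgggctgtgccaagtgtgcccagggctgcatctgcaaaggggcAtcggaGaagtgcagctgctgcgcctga
MT1X: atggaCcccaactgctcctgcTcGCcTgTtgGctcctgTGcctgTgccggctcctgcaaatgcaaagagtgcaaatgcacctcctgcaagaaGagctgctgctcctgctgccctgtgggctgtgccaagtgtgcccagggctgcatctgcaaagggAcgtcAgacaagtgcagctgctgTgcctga
MT1G differed from MT2A at 9 of these bases (95.16% identity), while MT1E and MT1X each differed at 14 (92.47%). The longest stretch without a difference from MT2A was 65 bases in MT1G, 63 in MT1X and 32 in MT1E. Among the MT1 genes, MT1E and MT1G differed at 10 bases, MT1G and MT1X at 16, and MT1E and MT1X at 17. The transcripts taken by the same rule for the undetected MT1A, MT1F, MT1H and MT1M also had 61 codons, 20 of them for cysteine. That of MT3 had 68 codons, with the same 20 for cysteine.

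All 4 detected members (MT2A, MT1E, MT1G and MT1X) were higher in PARGi, with no overlap between the groups, and all 4 were called by edgeR. The background for that count is 24.3% of tested genes called and 13.2% called higher, and nothing is read from the comparison because this contrast was known when the members were chosen. Separation of the 3 PARGi libraries above the 3 DMSO libraries was seen in 19.8% of tested genes. Each of the 4 passed the low-count filter (0.145 CPM in at least 3 libraries) in both groups, and the filter removed the 6 others.

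MT2A (ENSG00000125148.7), the main MT2 isoform, lies at chr16:56608199-56609497 and had the highest level. The DMSO libraries stood at 447, 435 and 409 CPM after TMM scaling, and the PARGi libraries at 967, 937 and 938. The lowest PARGi library was 2.10 times the highest DMSO library. The log2 fold change was 1.14 (SE 0.028, 95% confidence interval 1.08 to 1.20), a fold of 2.20. The underlying counts are large, between 27748 and 75508 per library, so counting error is small beside the spread between libraries.

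MT1E (ENSG00000169715.15), an MT1 isoform, lies at chr16:56625475-56627112. It stood at 130, 136 and 118 in DMSO and at 314, 310.3 and 314 in PARGi (CPM). The PARGi libraries were close to each other, with an SD of 2.04 CPM around 313 CPM (n = 3), against 9.23 CPM around 128 CPM in DMSO. Its log2 fold change was 1.29 (SE 0.035, interval 1.21 to 1.36), a fold of 2.44.

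MT1G (ENSG00000125144.14), the only detected member on the minus strand, at chr16:56666731-56668065, was low in control cells and had the largest ratio between groups of the 4. Levels were 1.02, 1.16 and 1.03 CPM in DMSO, from 65, 74 and 77 counts. They were 5.90, 6.22 and 6.05 CPM in PARGi, from 354, 460 and 487 counts. Every PARGi library was at least 5.08 times every DMSO library, and the log2 fold change was 2.50 (SE 0.10, interval 2.28 to 2.71), a fold of 5.65.

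MT1X (ENSG00000187193.9), at chr16:56682424-56684196, was low in both groups and the least even of the 4. DMSO libraries were at 0.898, 0.895 and 1.09 CPM (57, 57 and 81 counts) and PARGi libraries at 2.23, 1.69 and 1.84 CPM (134, 125 and 148 counts). The groups were separate, by a factor of 1.55 between their nearest libraries, but the coefficient of variation was 11.5% in DMSO and 14.6% in PARGi. For MT2A, MT1E and MT1G it did not pass 7.20% in DMSO or 2.64% in PARGi. The log2 fold change of MT1X was 0.98 (SE 0.15, interval 0.66 to 1.30), a fold of 1.97.

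**Figure D1:**
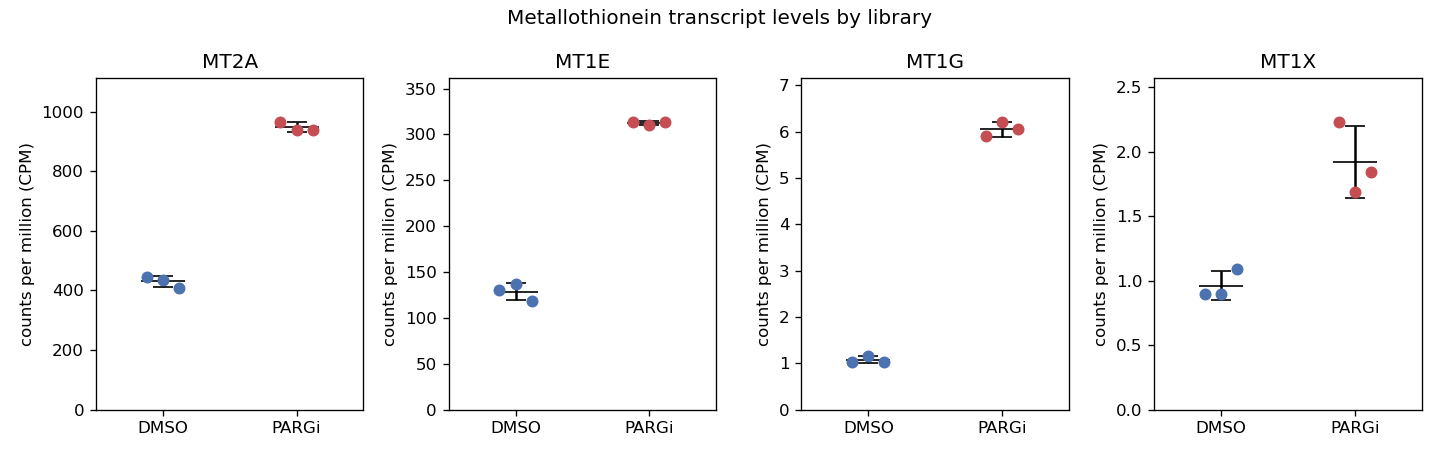
TMM-scaled level (CPM, linear axes from 0 that differ between panels) of the 4 detected metallothioneins in each of the 6 libraries, blue for DMSO and red for PARGi, with horizontal lines for the group means and bars for 1 SD (n = 3). In each gene the 3 PARGi points lie above the 3 DMSO points, from MT2A near 948 CPM to MT1X near 1.92 CPM in PARGi.

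The library that stood lowest or highest within its group was not the same for all members. DMSO replicate 3 was the lowest DMSO library for MT2A (-0.073 from the group mean on the log2 scale) and for MT1E (-0.12), yet the highest for MT1X (0.17). In PARGi, replicate 1 was the highest for MT2A (0.029) and MT1X (0.22), and for MT1G the highest was replicate 2 (0.038). These deviations are small beside the differences between groups in MT2A, MT1E and MT1G, whose standard errors are given above.

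The genes can be set side by side only per length of transcript. Per kb of exonic sequence, mean MT2A was 331 (DMSO) and 729 CPM (PARGi), and mean MT1E was 122 and 297 CPM. MT1G went from 1.43 to 8.08 CPM per kb and MT1X from 0.541 to 1.08. Among 20026 tested genes with a known length, MT2A had rank 64 in DMSO and 24 in PARGi, and MT1E rank 242 and 73. MT1G moved from rank 11822 to 5705 and MT1X from 14670 to 12524, so 2 members were among the more abundant tested genes and 2 were not. MT2A stood above MT1E, and MT1E above MT1G, by factors of 2.72 and 85.2 per kb in DMSO and 2.45 and 36.8 in PARGi. MT1G stood above MT1X by 2.64 in DMSO and 7.45 in PARGi, but this ratio depends on the length used. All annotated exons of MT1X cover 1773 bases, against 450 in 1 annotated coding transcript, and for MT1G they cover 750 against 406. With the transcript lengths, an alternative chosen after seeing the data, MT2A stood above MT1E by 3.00 in DMSO and 2.71 in PARGi. MT1E then stood above MT1G by 69.0 in DMSO and 29.8 in PARGi. MT1G exceeded MT1X by 1.24 in DMSO (1.05 to 1.44 over the 3 libraries) and by 3.50 in PARGi (2.93 to 4.08). The order of MT1G and MT1X in DMSO is therefore not firm.

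Since genes of similar sequence can exchange reads, the counts were also summed over the 10 members. The sum was 579, 574 and 529 in DMSO and 1289, 1255 and 1260 in PARGi (CPM). No library of one group reached the range of the other, and the log2 ratio of the means was 1.18. MT2A made up 73.1% of the summed rise, MT1E 26.1%, MT1G 0.704% and MT1X 0.136%. Without MT2A, the sum rose from 130.3 ± 9.18 to 321 ± 2.11 CPM (SD, n = 3), a log2 ratio of 1.30, which is nearly all MT1E.

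The shares of the members in the family count, given as a description, differed between the groups. MT2A held 77.2%, 75.9% and 77.2% of the family count in DMSO and 75.0%, 74.7% and 74.5% in PARGi, so its share was lower in each PARGi library while its level was higher. The exact binomial 95% intervals of the nearest pair, 75.4% to 76.3% in DMSO replicate 2 and 74.7% to 75.3% in PARGi replicate 1, did not touch; they cover counting error only. The share of MT1E was higher in PARGi, at 22.9% ± 0.775 in DMSO and 24.7% ± 0.271 in PARGi (SD, n = 3). MT1G held 0.192% ± 0.0132 and then 0.478% ± 0.0190 of the family count, and MT1X 0.172% ± 0.0290 and then 0.151% ± 0.0198.

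As ratios inside each library, which no scaling between libraries can alter, there were 3.43, 3.19 and 3.46 MT2A counts per MT1E count in DMSO and 3.08, 3.02 and 2.99 in PARGi. For every 1000 MT2A counts, MT1G had 2.29, 2.67 and 2.53 in DMSO and 6.10, 6.64 and 6.45 in PARGi. Both sets were separate between groups. How often ratios or shares of other genes separate in this way was not analysed. The members were chosen on these same counts, so nothing is read from the separation. MT1X had 2.01, 2.05 and 2.66 per 1000 MT2A counts in DMSO and 2.31, 1.80 and 1.96 in PARGi, and here the groups overlapped.

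**Figure D2:**
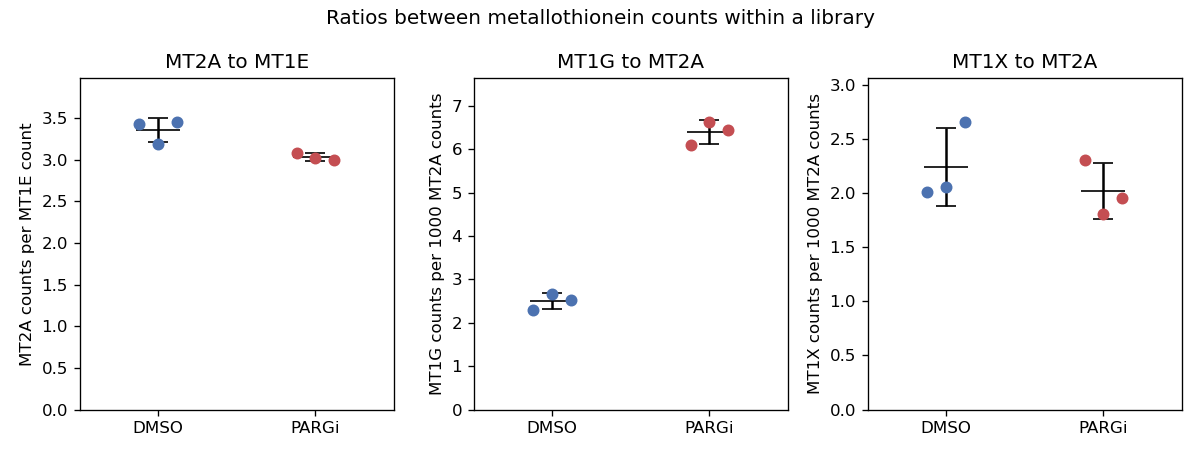
Ratios of metallothionein counts within each library (left, MT2A per MT1E count; middle, MT1G per 1000 MT2A counts; right, MT1X per 1000 MT2A counts; linear axes from 0), with group means and 1 SD (n = 3). DMSO and PARGi do not overlap in the left and middle panels, where MT1G runs from 2.29 to 2.67 in DMSO and from 6.10 to 6.64 in PARGi, and overlap in the right panel.

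The other 6 members, MT1A, MT1F, MT1H, MT1L, MT1M and MT3, had 0 counts in all 6 libraries. With 201058136 counts pooled over DMSO and 215068805 over PARGi, a count of 0 allows up to 0.0149 CPM in DMSO and up to 0.0139 CPM in PARGi (3 counts per group), if such reads would have been counted at these loci. The files do not show why the counts are 0, and the limit covers counting error only. For a single library that limit lies between 0.0372 and 0.0498 CPM. No fold can be given for them. Of the 10 members, 9 are annotated as protein-coding and MT1L as a transcribed unprocessed pseudogene. Among the 9, 5 were at 0 in every library (55.6%), against 2116 of 19890 protein-coding genes (10.6%). MT1A, MT1F, MT1H and MT1M are MT1 isoforms, and the coding transcripts taken for them were as long as those taken for the detected members.

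All 10 members lie in 1 cluster on chromosome 16, which holds 16 metallothionein loci within 119 kb, from MT4 to MT1X (chr16:56565049-56684196, GENCODE 29 on GRCh38). Detected and undetected genes are interspersed along it. MT2A is followed after 7.98 kb by MT1L, at 0, and then after a further 6.66 kb by MT1E. Between MT1E and MT1G lie 7 loci, of which 6 had no count, and the exception, the pseudogene MT1JP, had 4 counts over the 6 libraries. MT1G and MT1H lie head to head, with 1.75 kb between their starts, and MT1G had 1517 counts over all libraries while MT1H had 0. MT3 (chr16:56589074-56591088), at the 5′ side of MT2A, had none. In all, 5 of the 16 loci had at least 1 count.

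How reads that match several copies were treated is not given in the sources used here, so the annotated transcripts were searched for shared stretches. Windows were taken from 1 annotated transcript per gene, of 450 bases for MT1X. The share of 50-base windows found in no other gene's transcripts was 95.1% for MT2A, 94.7% for MT1E, 79.8% for MT1G and 54.9% for MT1X. At 100 bases it was 100% for MT2A, MT1E and MT1G and 80.9% for MT1X. Read length is also not given, so these shares bracket the case and do not measure it. Undetected members were as separable, at 94.2% for MT1A, 96.4% for MT1F, 95.6% for MT1L, 93.0% for MT1M and 100% for MT3 at 50 bases, with MT1H at 79.6%.

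AC026461.1, annotated on the same strand, overlaps 321 of the 1773 exonic bases of MT1X (18.1%). In the 450-base MT1X transcript searched, AC026461.1 shared 117 of 401 windows of 50 bases, against 47 shared by MT1G and 38 by MT1XP1. No other gene shared any 100-base window of that transcript, of which AC026461.1 shared 67. AC026461.1 had 0 counts in all 6 libraries. Counts of MT1X are therefore uncertain in level, and the share of its reads that could not be assigned was not analysed here.

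**Figure D3:**
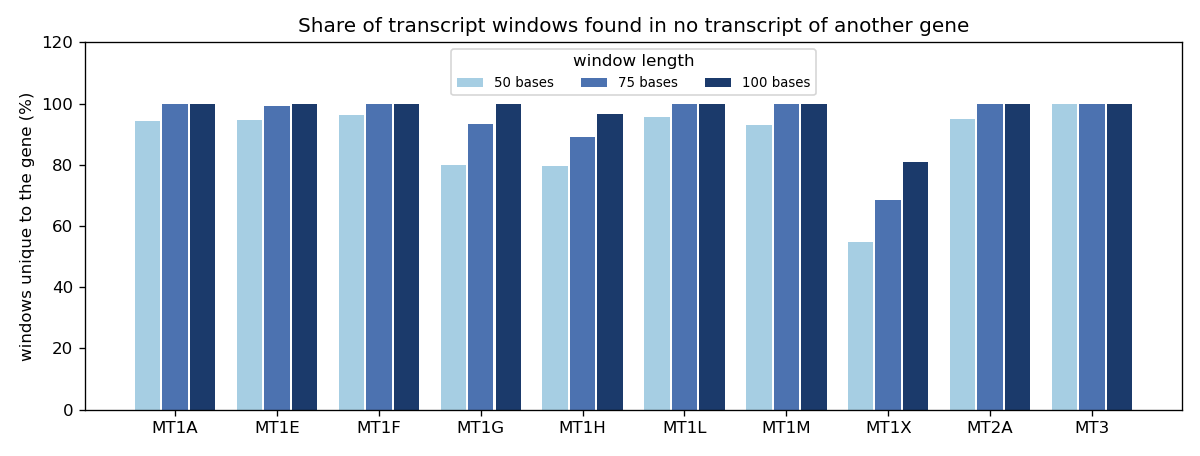
Share (%) of windows of 50, 75 and 100 bases in each member's annotated transcripts that occur in no other gene's transcripts. MT2A and MT1E stand above 94% at every window size, and MT1X is the lowest at each, from 54.9% at 50 bases to 80.9% at 100 bases.

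Of 11 further metallothionein loci, 6 (MT1B, MT4, MT1CP, MT1DP, MT1HL1 and MT1IP) had no counts in any library. MT2P1, a processed pseudogene on chromosome 4 named for MT2, had 9, 3 and 4 counts in DMSO and 16, 20 and 21 in PARGi, and was the only one tested. It was called higher, by 1.72 on the log2 scale (SE 0.43, edgeR adjusted p = 0.00432), but it reached the low-count filter in the PARGi libraries alone, and DESeq2 gave it no adjusted p. Per 100000 MT2A counts, MT2P1 had 31.7, 10.8 and 13.1 in DMSO and 27.6, 28.9 and 27.8 in PARGi, and these overlap. MT1XP1 had 2, 1 and 3 counts in DMSO and 7, 4 and 2 in PARGi. MT1P1 had 0, 1 and 2 and then 1, 2 and 1, MT1P3 had 0, 0 and 0 and then 0, 2 and 1, and MT1JP had 0, 0 and 2 and then 1, 1 and 0. Whether the counts at these pseudogenes are reads of the parent genes was not tested.

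Promoter sequence was matched by symbol in a RefSeq table for 3 of the 10 members (MT2A, MT1X and MT1H; GRCh38.p14), and the 250 bases before each start are shown because they hold the elements through which MTF1 is known to act. MT1A, MT1E, MT1F, MT1G, MT1L, MT1M and MT3 were not matched. The search was for the 2 core forms of the metal response element, TGCACNC and TGCGCNC, on both strands, and capitals mark each match. The windows are chr16:56608334-56608583 (MT2A), chr16:56682220-56682469 (MT1X) and chr16:56669564-56669813 (MT1H), all on the plus strand, and the start is that of RefSeq, which for MT2A and MT1X lies inside the GENCODE gene.
MT2A: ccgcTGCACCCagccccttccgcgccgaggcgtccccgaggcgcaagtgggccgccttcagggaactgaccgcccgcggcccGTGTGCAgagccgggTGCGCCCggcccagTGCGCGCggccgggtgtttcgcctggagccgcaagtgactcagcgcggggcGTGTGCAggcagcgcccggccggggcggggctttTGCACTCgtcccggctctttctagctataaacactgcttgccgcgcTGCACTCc
MT1X: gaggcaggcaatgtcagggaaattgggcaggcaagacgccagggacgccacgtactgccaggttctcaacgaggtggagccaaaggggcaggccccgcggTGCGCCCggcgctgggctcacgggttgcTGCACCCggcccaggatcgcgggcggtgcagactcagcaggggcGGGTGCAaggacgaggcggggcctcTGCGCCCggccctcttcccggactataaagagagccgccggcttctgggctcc
MT1H: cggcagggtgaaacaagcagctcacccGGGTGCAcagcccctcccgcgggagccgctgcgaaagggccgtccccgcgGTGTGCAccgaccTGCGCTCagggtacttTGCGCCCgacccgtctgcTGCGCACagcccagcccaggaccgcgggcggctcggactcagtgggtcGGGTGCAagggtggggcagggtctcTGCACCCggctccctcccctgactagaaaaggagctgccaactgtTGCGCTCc
The window of MT2A held 7 cores, 5 of them on the gene's strand and 2 on the other, and 5 of the 7 were of the form TGCACNC. The nearest began 8 bases before the start, and the farthest 246 bases before it. The window of MT1X held 4 cores, 3 on the gene's strand, and 2 of the 4 were TGCACNC. MT1H, which had no counts, held 8 cores, 5 on its own strand. Among 35116 promoters of the same length, 24.8% held at least 1 core, 0.37% at least 4 and 0.0313% at least 7. With TGCACNC alone, 9.87% held at least 1. The letters TATAAA, searched on the gene's strand after the sequences had been seen, began 29 bases before the start in MT2A and 30 bases before it in MT1X, were not found in the window of MT1H, and occurred in 6.8% of all promoters. These matches describe letters, not occupied sites.

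Genes of zinc handling outside the family were tested in the same fit. Of 26 listed genes of zinc sensing and transport, 23 were tested, 7 rose and 2 fell (39.1% called, against 24.3% of all tested genes), with a median log2 fold change of 0.024 against -0.0070 over all tested genes. The 2 that fell include SLC39A12, which passed the low-count filter through DMSO, where it was higher. MTF1 itself stood at 35.2, 36.2 and 34.9 in DMSO and 34.8, 34.3 and 35.2 in PARGi (CPM). Its groups overlapped, and the log2 difference was -0.027 (interval -0.097 to 0.044, edgeR adjusted p = 0.629). SLC30A1 (ZnT1), the plasma membrane zinc exporter and a known MTF1 target, stood at 112, 114 and 107 in DMSO and 175, 174 and 174 in PARGi (CPM). It rose by 0.65 (SE 0.027, adjusted p = 2.02e-14), a smaller log2 difference than that of any detected metallothionein.

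SLC30A2 (ZnT2), which moves zinc into vesicles, went from between 0.661 and 1.02 CPM to between 3.65 and 4.30 CPM, a log2 difference of 2.20 (SE 0.14, adjusted p = 2.91e-11). SLC39A14 (ZIP14), an importer, rose by 0.14 (adjusted p = 0.000356). SLC39A10 (ZIP10), also an importer, fell by 0.14 (adjusted p = 0.000649). SLC39A12 (ZIP12) was near the detection limit, at 0.242 to 0.314 CPM in DMSO and 0.200, 0.122 and 0.0497 CPM in PARGi. It fell by 1.25 (SE 0.41, adjusted p = 0.0267), a call lost in 4 of the 6 fits that each left out a library. It passed the low-count filter (0.145 CPM in at least 3 libraries) through DMSO, the group where it was higher. Nothing is therefore read from that call.

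Among all tested genes, 24.3% were called and 13.2% were called higher. Copper handling genes, another set of metal genes, were called in 3 of 15 (20%), all higher, with a median of 0.020. The 3 were SOD1, a copper and zinc enzyme, by 0.13, STEAP3, a metalloreductase, by 0.11, and SLC31A1, the copper importer CTR1, by 0.15 (adjusted p between 0.000360 and 0.00276). Of 17 listed genes of the glucocorticoid receptor and its response, 13 were tested, 4 rose and 3 fell (53.8% called, against 24.3% of all tested genes), with a median of -0.0037. The receptor gene NR3C1 rose by 0.15 (adjusted p = 0.000346), ERRFI1 by 0.36 (adjusted p = 2.96e-09) and FKBP5 by 0.13 (adjusted p = 0.00262). SGK1 fell by 0.36 (adjusted p = 1.40e-06), NFKBIA by 0.30 (adjusted p = 0.000249) and PDK4 by 0.74 (adjusted p = 0.00850). The PDK4 call was lost without DMSO replicate 1 and without PARGi replicate 3, where its adjusted p reached 0.0880.

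Oxidant response genes, which the factor NRF2 controls, were called in 9 of 20 (45%), all higher, with a median of 0.106. Among all tested genes, 24.3% were called and 13.2% were called higher. With an offset for GC content and length, the count of oxidant genes called became 15. Over all 20409 tested genes, that offset changed the calls from 2700 to 4240 higher and from 2251 to 1845 lower. GCLM, a subunit of the enzyme that starts glutathione synthesis, rose by 0.42 (adjusted p = 1.51e-09), PGD of the pentose phosphate pathway by 0.21 (adjusted p = 6.85e-07) and the quinone reductase NQO1 by 0.21 (adjusted p = 1.85e-06). Heat shock genes were called in 7 of 13 (53.8%), all higher (against the same 24.3% and 13.2%), with a median of 0.104. HSPH1 rose by 0.24 (adjusted p = 3.48e-07), HSP90AA1 by 0.20 (adjusted p = 5.44e-07) and the co-chaperone BAG3 by 0.27 (adjusted p = 1.76e-05). All of these log2 differences in the copper, oxidant and heat shock lists are below the smallest among the detected metallothioneins, 0.98 in MT1X. That comparison is a description only, because the members were chosen with this contrast known.

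**Figure D4:**
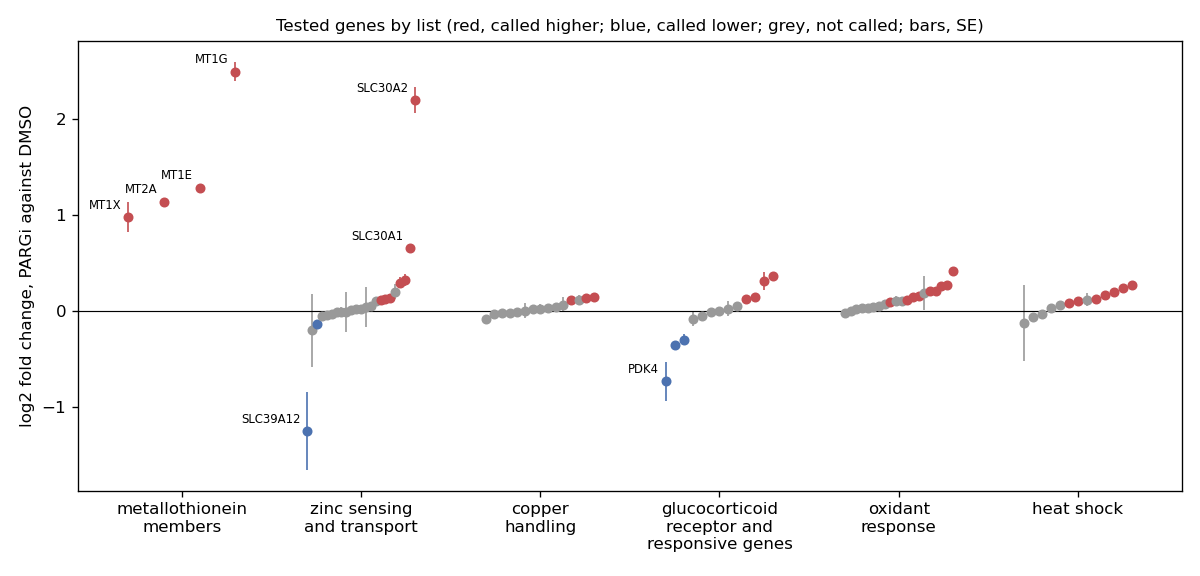
log2 fold change (PARGi against DMSO, edgeR) of every tested gene in the metallothionein, zinc, copper, glucocorticoid, oxidant and heat shock lists, coloured by call (red higher, blue lower, grey not called; bars, SE). The 4 metallothioneins lie between 0.98 and 2.50, and among the other lists SLC30A2 reaches 2.20.

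Since the family shares 1 locus, the genes around it were looked at too. Of 17 other genes tested within 500 kb of the cluster, 4 were called (23.5%), all higher. The shares over all tested genes were 24.3% called and 13.2% called higher. The median log2 fold change of the 17 neighbours was 0.0062. HERPUD1, an endoplasmic reticulum stress gene, rose by 0.37 (SE 0.028, adjusted p = 8.42e-10) and CPNE2 by 0.19 (adjusted p = 2.65e-05). OGFOD1, also called, rose by 0.15 and was named after its value was seen. BBS2 and NUP93, genes on the flanks of the cluster picked after their values were seen, differed by 0.088 (adjusted p = 0.149) and 0.0062 (adjusted p = 0.896). Log2 fold changes of the tested neighbours ran from -0.63 to 0.37, against 0.98 to 2.50 for the 4 detected metallothioneins. Nothing is read from that gap, because the members were chosen with this contrast known.

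**Figure D5:**
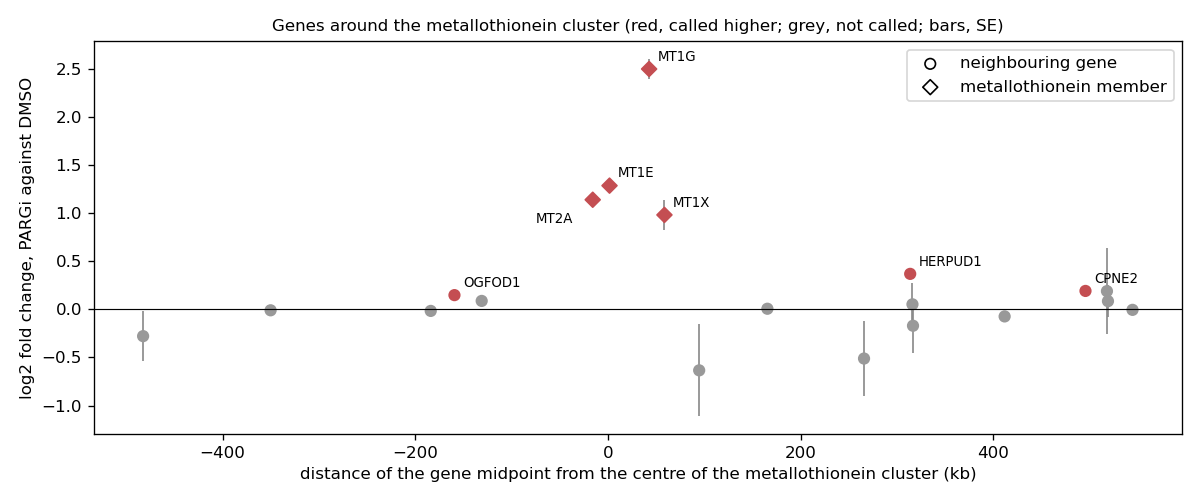
log2 fold change (bars, SE) of 16 of the 17 tested genes within 500 kb of the metallothionein cluster, 1 called gene not being shown, against the distance (kb) of the gene's midpoint from the cluster's centre; diamonds are metallothioneins, circles neighbours, red called higher and grey not called. The 4 diamonds lie between 0.98 and 2.50, and the circles between -0.63 and 0.37.

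Genes with the pattern most like the summed family level were listed by Pearson's r over the 6 libraries, on log2 values with a pseudocount of 0.1 CPM, among 14873 tested genes whose mean reached 1 CPM. The 5 most alike were CCNE1 (cyclin E1, r = 0.9998), AEN (an exonuclease gene, r = 0.9997), SLC30A1 (r = 0.9995), ANKRD1 (r = 0.9994) and DYNLT3 (a dynein light chain gene, r = 0.9986). The 6 points are 2 groups of 3, so r mostly repeats the separation of the groups, and 1767 of the candidates (11.9%) had r above 0.9. SLC30A1 is the only zinc gene among the 5.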

How the data were processed

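Per the labels' protocols, total RNA of U2OS cells was made into libraries with a stranded TruSeq kit. The authors deposited raw whole-number counts per gene, 1 column a library. The submitters' processing notes name cutadapt 1.18, STAR 2.7.3a, SAMtools 1.9, DESeq2 (as 3.12), deepTools and build hg38. The annotation release, the read length, the strand setting and the handling of reads that match several genes are not given in the sources used here.

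The members and gene lists were chosen with earlier results of these data known. A gene name table paired 42217 of the 60708 rows with a symbol. Positions, lengths and transcripts came from GENCODE 29 (GRCh38), and promoters from RefSeq.

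Differences were tested in edgeR 4.0.16 under R 4.3.3, by the two-sided quasi-likelihood test (glmQLFit, glmQLFTest) on counts filtered by filterByExpr and scaled by TMM, over 3 PARGi and 3 DMSO libraries, with Benjamini-Hochberg adjustment over 20409 genes and a threshold of 0.05. CPM values are TMM-scaled, and SDs are over 3 libraries. Sums and shares have no test. Named were all members, other metallothionein loci with a count, MTF1, NR3C1, up to 3 called genes in each direction per list and 3 called neighbours by smallest p, and the 5 genes most correlated with the family sum. A neighbour that this rule selected is not reported here. Depth was 60286931 to 80605145 counts per library, without molecular identifiers. The binomial intervals of shares and the limits for counts of 0 cover counting error only. Intervals of fold changes come from the edgeR fit and also carry the spread between libraries. Alternatives were DESeq2 1.42.0, other scalings and filters, a replicate block, a GC and length offset, and each library left out. Library pairs of 1 group differed beyond sampling noise, by a chi-square of 2.27 to 6.10 per degree of freedom. Figures used matplotlib 3.10.9.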

Additional observations from a re-analysis of the deposited data

How the results depend on the processing

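All 4 detected metallothioneins were called higher in each of 14 alternatives, with log2 fold changes of 1.10 to 1.23 for MT2A, 1.23 to 1.38 for MT1E, 2.47 to 2.59 for MT1G and 0.87 to 1.09 for MT1X. The summed log2 ratio was 1.14 to 1.20 when each library was left out and 1.30 without MT2A, and the difference in MT2A's share was -2.49 to -1.80 percentage points when each library was left out. Of 32 called named genes, 29 were called in all 14 alternatives, and PDK4 and SLC39A12 lost the call in some. SLC39A12 had passed the low-count filter through DMSO, where it was higher. MT2P1, which reached the low-count filter in the PARGi libraries alone, had an adjusted p in 12, each a call. The members were chosen with this contrast known, and most other named genes by small p or likeness in these same libraries. Their staying called is therefore no independent support. The count of other metallothionein loci called, 1, became 0 with DESeq2 and 0 with at least 10 counts in every library, because MT2P1 had no adjusted p there. Oxidant genes called went from 9 to 15 with the GC and length offset and to 14 with the replicate block and that offset; the cause was not tested. With TGCACNC alone, the 3 member promoters held 11 cores in place of 19. Over all genes, calls were 2700 higher and 2251 lower, 2003 and 2944 with upper-quartile scaling, and 4240 and 1845 with the offset. Leaving out a library gave 3607 (without PARGi replicate 2) to 4848 calls.

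The groups share replicate numbers, but same-numbered libraries did not deviate together (correlations -0.0036, 0.012 and -0.0088), so the numbers were not taken as pairs. With the replicate block 4553 genes were called in place of 4951, and all 4 detected metallothioneins were among them.

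MT1G and MT1X rest on 57 to 487 counts per library, and 6 members had none, where 3 counts correspond to 0.0372 to 0.0498 CPM in a single library. Protein sequences and the promoters of 7 members were not used here.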
